A study of Homo sapiens with 36 samples.

Results

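The change in gene expression between the first and the third week of exposure to the strongest cigarette smoke extract was examined in A549 cells. A549 is a human lung adenocarcinoma line that is widely used as a model of the alveolar epithelium. The comparison used 6 of the 36 arrays, 3 from cells held in CSE 10% for 3 weeks and 3 from cells held in it for 1 week, chosen by concentration and time alone. It was made over all 18417 genes to which a single gene symbol could be given, out of 33297 transcript clusters, the probe groups that the array summarises to 1 value each. CSE is the aqueous extract obtained by bubbling smoke through culture medium. Every culture, including the controls, was first kept without serum for 24 hours and then in DMEM with 1% foetal bovine serum. Control cells received the same medium without CSE, other cultures received CSE 1% or CSE 5%, and the medium was renewed every 24 hours. Cultures taken at 3 weeks had been subcultured every week, whereas those taken at 1 week had not passed that step. Time of exposure and number of passages can therefore not be told apart. To separate the effect of time in culture from that of the extract, the same change was measured in the 3 and 3 control arrays at those times, and in the 3 and 3 arrays at CSE 5%.

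Smoke extract carries aldehydes, quinones and metals that modify proteins and consume glutathione. Cells answer such injury with several programmes. Heat shock factor 1 induces chaperones that refold damaged proteins, ATF4 induces genes of amino acid synthesis and redox balance when translation is slowed, NRF2 induces detoxifying enzymes, and metal-responsive factors induce metallothioneins. Polycyclic hydrocarbons in smoke activate the aryl hydrocarbon receptor, whose best known targets are the CYP1 enzymes.

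All values are RMA levels on the log2 scale, so a difference of 1 is a 2-fold change. A gene was counted as higher or lower when its log2 fold change passed 1 and its B value, the log-odds that it changed, was above 0. Single genes and gene lists were read at an adjusted p of 0.05. The A549 arrays carried their epithelial and metabolic markers, with KRT8 between 13.15 and 13.28, KRT18 between 13.03 and 13.20 and AKR1B10 between 12.82 and 13.14 in the 6 arrays. The surfactant gene SFTPC, which marks mature alveolar type II cells, lay between 6.04 and 6.21, and NKX2-1, the lung lineage factor, between 5.44 and 5.67. Of the other A549 markers examined, MUC1 lay between 6.32 and 7.53, NAPSA between 6.22 and 6.69 and SFTPB between 6.11 and 6.34. Of 19 genes that mark leukocytes, endothelium, fibroblasts or neuroendocrine cells, 0 rose and 1 fell, which describes change and not presence. CD68 lay between 9.83 and 10.44 and COL1A1 between 7.54 and 7.67, above the median of all genes on these arrays, 7.30. The rest of these genes lay below that median. Replicate 3 at 3 weeks had the highest median of the 36 arrays, 6.91, where the lowest was 6.72. The first principal component of the 6 arrays took up 69.5% of their variance and separated the weeks.

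From 1 to 3 weeks in CSE 10%, 245 genes (1.33% of those tested) became higher and 193 (1.05%) became lower. At the adjusted p, 2441 genes rose (13.3%) and 2134 fell (11.6%), with a median log2 fold change over all genes of 0.0007. Control cells changed over the same weeks too, with 212 genes higher (1.15%) and 71 lower (0.386%) by fold and B, and with 1201 rising (6.52%) and 1040 falling (5.65%) at the adjusted p. The difference between these changes was tested directly. It is signed, the log2 fold change at CSE 10% minus that in the other group, so that a lower change is a deeper fall or a weaker rise and a higher change is a steeper rise or a shallower fall. The change was higher at CSE 10% than in control for 160 genes (0.869%) and lower for 124 (0.673%). At the adjusted p these numbers were 1074 (5.83%) and 1128 (6.12%). Of the 245 genes that became higher, 128 (52.2%) also differed from control in that direction, and of the 193 that became lower, 127 (65.8%) did. The test of the difference uses the same CSE 10% arrays, so these shares describe the lists and are not a second line of evidence. Centring the arrays on 19 housekeeping genes moved the share of higher genes among those counted from 55.9% to 68.6%, and that of higher changes than in control from 56.3% to 77.3%, whereas renewed quantile normalisation brought them to 48.6% and 52.4%. The housekeeping centring shifts the change at CSE 10% relative to control by 0.15, since these housekeeping genes fell by 0.15 relative to control. In bulk cultures, fewer cells of one state and less RNA per cell cannot be told apart.

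**Figure D1:**
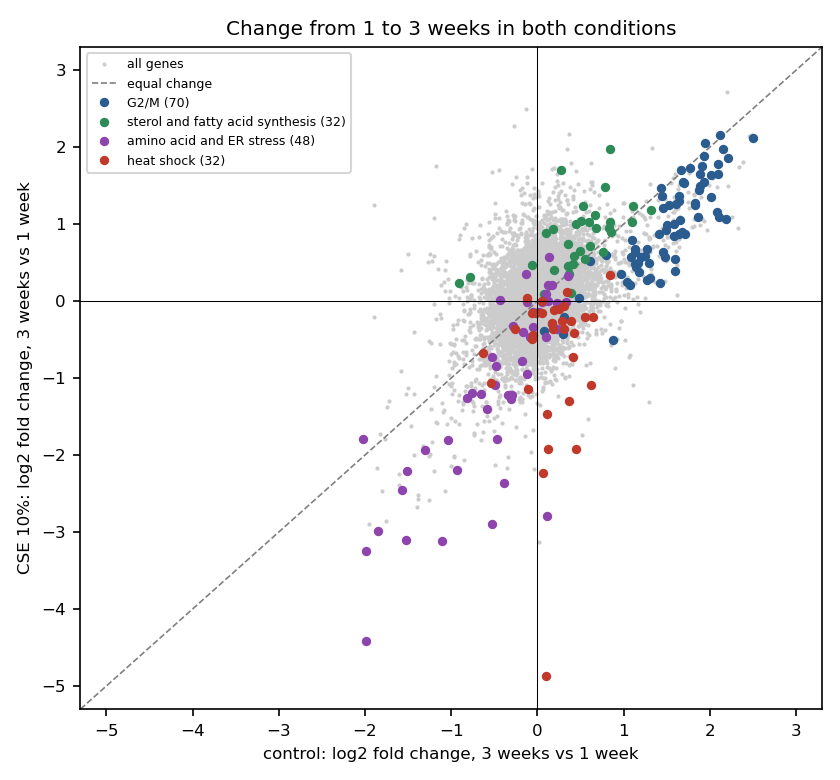
Log2 fold change from 1 to 3 weeks in CSE 10% (vertical axis) against that in control (horizontal axis) for each of 18417 genes (grey), with members of 4 gene lists in colour; the dashed line marks equal change. Heat shock genes lie below the line near a control change of 0, with HSPA6 at -4.87, and genes of the G2/M list lie to the right and mostly below the line.

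Heat shock genes were high after 1 week in CSE 10% and had come down by week 3. Clusters that carry several symbols, those of HSPA1A and HSPA1B among them, were not analysed. Of 32 chaperone and co-chaperone genes measured, 20 fell, 0 rose and 12 did not pass, with a median log2 fold change of -0.36. In control 9 rose and 1 fell, with a median of 0.17, and the change at CSE 10% was lower than in control for 14 and higher for 0. HSPA6, an HSP70 that is almost silent in unstressed cells, had the steepest measured fall of all genes. Its level was 10.92, 10.89 and 10.78 at 1 week and 6.03, 5.99 and 5.96 at 3 weeks. Control cells stood at 6.02 ± 0.13 at 1 week and 6.12 ± 0.16 at 3 weeks (SD, n = 3), so that the 3 late CSE 10% arrays lay in the range of the controls and the 3 early ones far above it. The fall was 29.3-fold, a log2 fold change of -4.87 (SE 0.15, limma adjusted p = 4.94e-19), and the change differed from that of control by -4.97. The late levels lie near the lower quartile of all genes on these arrays (5.89) and below CSF1R, a macrophage receptor, at 6.13 to 6.57. No detection call is given for dim clusters, so the fold is the measured one and may understate the fall.

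**Figure D2:**
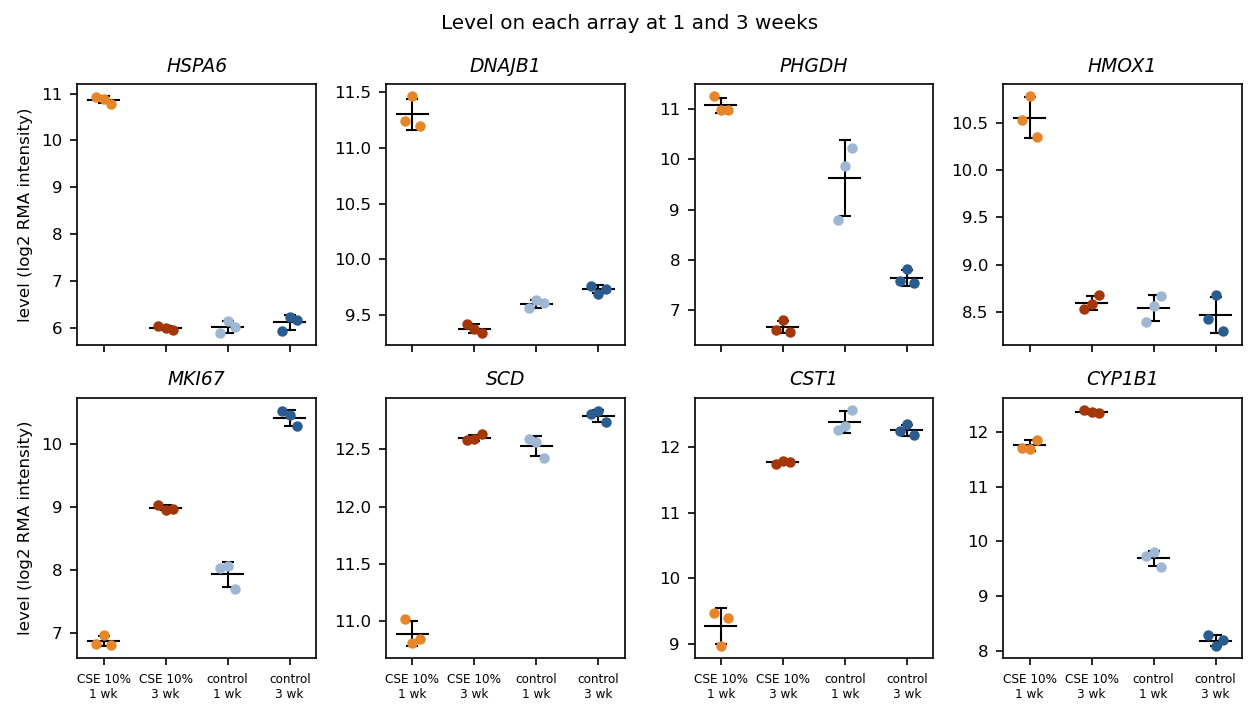
Level of 8 genes (log2 RMA intensity) on each array in CSE 10% and in control at 1 and 3 weeks; points are arrays, horizontal lines are means and bars are SD (n = 3). HSPA6, DNAJB1 and HMOX1 are high only in CSE 10% at 1 week among these 4 groups, and CYP1B1 rises from a mean of 11.76 to 12.37 in CSE 10% while it falls in control.

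The DNA just before the start of the listed heat shock genes was also searched. The counts cover genes that fell and genes that did not pass, so they are not a result of the changes on these arrays. In the 250 bases upstream of an annotated start (RefSeq, GRCh38.p14), the core of the heat shock element, GAANNTTC, was searched on both strands. It was present in 15 of 29 heat shock genes with a listed promoter (51.7%) and in 7.05% of all 27305 genes with one. A gene with several listed starts counts once if any of its windows holds the letters, and the 29 genes had 44 windows. A few of those windows follow 5′ to 3′ in the sense of the gene, with matches in capitals. They are HSPA6 on the plus strand at chr1:161524290-161524539, HSPB8 on the plus strand at chr12:119178681-119178930 and SERPINH1 on the plus strand at chr11:75562003-75562252.
HSPA6: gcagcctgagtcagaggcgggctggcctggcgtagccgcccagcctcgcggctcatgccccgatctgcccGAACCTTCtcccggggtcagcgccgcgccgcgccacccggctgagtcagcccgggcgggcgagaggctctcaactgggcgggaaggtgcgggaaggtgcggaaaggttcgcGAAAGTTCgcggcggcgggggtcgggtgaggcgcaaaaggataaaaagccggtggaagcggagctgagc
HSPB8: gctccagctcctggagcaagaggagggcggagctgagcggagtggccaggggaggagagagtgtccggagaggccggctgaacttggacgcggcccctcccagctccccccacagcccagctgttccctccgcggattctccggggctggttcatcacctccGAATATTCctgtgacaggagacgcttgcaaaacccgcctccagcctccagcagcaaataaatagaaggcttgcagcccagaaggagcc
SERPINH1: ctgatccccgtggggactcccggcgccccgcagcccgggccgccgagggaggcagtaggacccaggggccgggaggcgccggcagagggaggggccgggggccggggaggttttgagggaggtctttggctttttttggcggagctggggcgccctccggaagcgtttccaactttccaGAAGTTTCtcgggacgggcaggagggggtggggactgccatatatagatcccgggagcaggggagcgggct
HSPA6 holds a pair of matches, and HSPB8 and SERPINH1 hold 1 each. BAG3 and HSPH1, which fell too, hold none in the windows searched. A match is a description of the letters and not of factor binding.

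DNAJB1, the HSP40 partner of HSP70, had levels of 11.25, 11.46 and 11.20 at 1 week and 9.42, 9.37 and 9.34 at 3 weeks. It fell 3.80-fold (log2 fold change -1.92, SE 0.08, adjusted p = 1.58e-16), and its control level was 9.60 ± 0.04 and 9.73 ± 0.04 (SD, n = 3) at the same times. HSPB8, a small heat shock protein that works with BAG3 in the removal of misfolded proteins, went from 8.76, 8.95 and 8.58 to 6.67, 6.52 and 6.40. Both groups of HSPB8 arrays were again well separated, with a log2 fold change of -2.23 (adjusted p = 4.18e-11). BAG3 itself fell by 1.30 and SERPINH1, the collagen chaperone HSP47, fell by 1.47. CRYAB, a small heat shock protein of the lens and muscle, fell by 1.92, and its difference from control at 3 weeks was -1.75. HSPH1, an HSP110 that releases nucleotide from HSP70, fell by 1.09 (adjusted p = 1.51e-04). The smallest falls that passed included HSPA8, the constitutive HSP70, at -0.16. ZFAND2A, an arsenite-inducible regulator of the proteasome, is not in the list but fell by 2.12.

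The concentrations differed in these genes. The change from 1 to 3 weeks was lower at CSE 10% than at CSE 5% for 31 genes (0.168%) and higher for 4 (0.0217%), and at the adjusted p for 124 (0.673%) and 60 (0.326%). The count of 4 ranged from 0 to 7 when single arrays were left out, with 0 without replicate 2 and 7 without replicate 3 of CSE 10% at 1 week. Of the 32 heat shock genes, 8 had a lower change, a deeper fall than at CSE 5% in each gene named next, and 0 a higher one. The difference was -4.08 for HSPA6, -1.64 for DNAJB1, -1.78 for HSPB8, -1.45 for SERPINH1, -1.80 for CRYAB and -1.17 for BAG3. CRYAB was not particular to CSE 10%, since it also came down at CSE 1%. There it went from 9.83, 9.82 and 9.77 to 7.64, 7.68 and 7.97, and its early level was above that in CSE 10% (8.21, 8.28 and 8.17). At 1 week HSPA6 had a mean of 6.61 in CSE 5% against 10.86 in CSE 10%, and at 3 weeks the means were 5.81 and 5.99. ANKRD1, a cardiac and stress-induced ankyrin repeat protein driven by YAP in epithelial cells, moved in the same direction. It went from 8.71, 8.86 and 8.49 to 5.57, 5.55 and 5.54 in CSE 10%, a log2 fold change of -3.13 (adjusted p = 1.67e-16). The late levels of ANKRD1 lie below the lower quartile of 5.89, so the measured fold may understate its fall. Its change differed by -2.80 from that at CSE 5% and by -3.15 from that of control, where the mean was 5.62 and 5.64. PTGS2, the inducible cyclooxygenase, fell by 2.18 at CSE 10% and differed by -2.19 from CSE 5%, where its mean was 9.50 at both times.

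**Figure D3:**
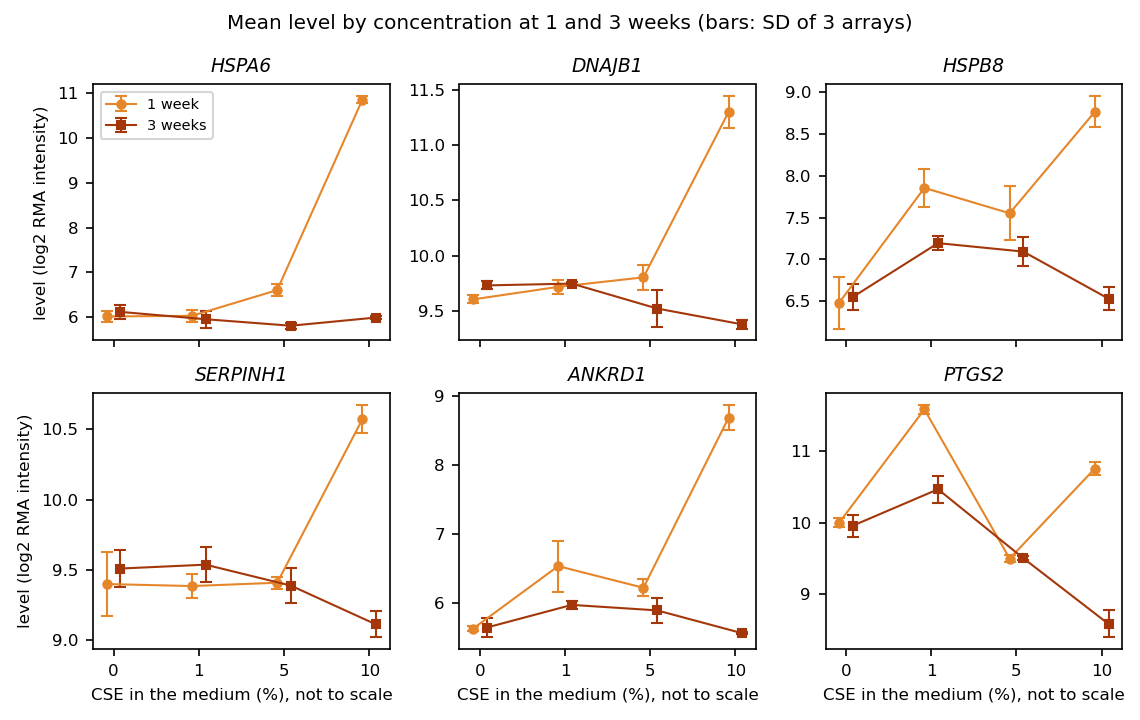
Mean level (log2 RMA intensity) of 6 genes against the CSE concentration, at 1 week (circles) and 3 weeks (squares); bars are SD over 3 arrays and concentrations are evenly spaced. At 1 week HSPA6 reaches 10.86 at 10% while the other 3 concentrations stay between 6.02 and 6.61, and at 3 weeks no group exceeds 6.12; PTGS2 is highest at 1%.

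Genes of the integrated stress response and of the unfolded protein response in the endoplasmic reticulum fell for the most part. Of 48 measured, 34 fell, 3 rose and 11 did not pass, with a median log2 fold change of -0.90. In control 22 fell and 2 rose, with a median of -0.30, so that a fall also occurred without CSE. The change at CSE 10% was lower than in control for 25 and higher for 2. At CSE 5% 36 fell and 1 rose, with a median of -0.70, and at CSE 1% 28 fell and 1 rose, with a median of -0.60. The change at CSE 10% was lower than at CSE 5% for 3 and higher for 0. PHGDH, the first enzyme of serine synthesis from glycolysis, went from 11.25, 10.99 and 10.99 to 6.61, 6.80 and 6.57. All 3 late arrays were thus far below the early ones, by 21.3-fold (log2 fold change -4.41, SE 0.21, adjusted p = 2.74e-15). PHGDH also fell in control, from 9.63 ± 0.75 to 7.64 ± 0.16 (SD, n = 3), and the difference of the changes was -2.42 (adjusted p = 1.97e-06). At CSE 5% its mean went from 11.21 to 7.06, and the difference from CSE 10% was -0.26 (95% interval -0.87 to 0.35, adjusted p = 0.957).

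PSAT1, the next enzyme of serine synthesis, went from 10.98, 10.83 and 10.97 to 7.94, 7.79 and 7.74, a log2 fold change of -3.10. Of the mitochondrial folate enzymes, ALDH1L2 fell by 3.11 and MTHFD2 fell by 2.19, and CTH, which makes cysteine from cystathionine, fell by 2.89. CHAC1, which breaks down glutathione, went from 9.86, 9.64 and 9.73 to 6.84, 6.68 and 6.75, and ASNS, asparagine synthetase, fell by 2.46. STC2, a secreted glycoprotein, went from 10.83, 11.05 and 10.64 to 7.61, 7.57 and 7.63. Part of these falls also occurred in control. The change differed from control by -1.58 for PSAT1, -2.01 for ALDH1L2, -2.36 for CTH, -1.14 for CHAC1 and -1.26 for STC2. PPP1R15A, or GADD34, which restores translation by dephosphorylating eIF2 alpha, fell by 2.80 at CSE 10% and differed from control by -2.91. ATF4 mRNA fell by 1.20, and its partners and targets DDIT3, TRIB3, SESN2 and NUPR1 fell by 1.79, 1.80, 2.21 and 2.37. In control SESN2 went from 8.12, 8.44 and 8.38 to 6.74, 6.98 and 6.67. TRIB3 went there from 10.21, 10.60 and 10.67 to 9.41, 9.61 and 9.33, and ASNS from 9.74, 10.08 and 10.02 to 8.48, 8.36 and 8.27. DDIT3, the transcription factor CHOP, fell by 2.03 in control, and its difference was 0.24 (95% interval -0.25 to 0.73, adjusted p = 0.654). The 3 members that rose, PDIA6 at 0.57 among them, are folding enzymes or chaperones of the endoplasmic reticulum.

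The promoters of these genes were searched for TGATGNAA, the composite C/EBP-ATF element that ATF4 uses, on both strands. It was found in 7 of 42 genes with a listed promoter (16.7%) and in 3.89% of all genes. ASNS, on the minus strand at chr7:97872409-97872658, and CHAC1, on the plus strand at chr15:40953221-40953470, are shown in the sense of the gene because both fell by more than 2 and hold it. PHGDH, PSAT1, CTH, MTHFD2, STC2, PPP1R15A and SESN2 also fell by more than 2 and do not hold it in the windows searched. The match is in capitals and lies on the sense strand in ASNS and on the other strand in CHAC1, where it reads as the reverse complement.
ASNS: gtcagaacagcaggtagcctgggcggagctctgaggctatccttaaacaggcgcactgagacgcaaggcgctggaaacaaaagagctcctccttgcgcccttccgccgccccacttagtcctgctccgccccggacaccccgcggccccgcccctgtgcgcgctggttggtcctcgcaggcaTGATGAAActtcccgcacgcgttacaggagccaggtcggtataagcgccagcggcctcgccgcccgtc
CHAC1: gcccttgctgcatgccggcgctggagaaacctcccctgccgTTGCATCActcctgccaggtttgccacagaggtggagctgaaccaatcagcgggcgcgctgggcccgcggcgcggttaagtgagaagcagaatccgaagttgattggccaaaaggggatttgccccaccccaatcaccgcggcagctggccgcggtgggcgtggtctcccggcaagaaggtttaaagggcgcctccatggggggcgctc

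Immediate early genes, which are induced within minutes of growth factor or stress signalling, fell as well. Of 35 measured, 27 fell, 1 rose and 7 did not pass, with a median of -0.56 against -0.06 in control, where 5 rose and 5 fell. Their change was lower than in control for 21 and higher for 1. DUSP1, a phosphatase that switches off MAP kinases, went from 10.94, 11.04 and 10.79 to 8.85, 8.76 and 8.67. In control DUSP1 stayed high, at a mean of 11.29 and 10.93, and the difference of the changes was -1.81. KLF4, a zinc-finger factor of epithelial differentiation, fell by 2.03, EGR1 by 1.74, DUSP5 by 1.68, FOS by 1.52 and JUN by 1.19. HBEGF, a ligand of the EGF receptor, fell by 2.58, and it had a log2 fold change of -1.39 in control. EGR1 rose in control by 0.52, so that its changes differed by -2.26.

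The antioxidant genes did not move as a group. Of 37 NRF2 targets and regulators, 9 rose, 7 fell and 21 did not pass, with 14 rising under housekeeping centring and 12 falling with array weights. Over all genes 13.3% rose and 11.6% fell. HMOX1, haem oxygenase, went from 10.54, 10.78 and 10.35 to 8.53, 8.58 and 8.68, and the late arrays were close to the control level of 8.54 ± 0.14 and 8.46 ± 0.20 (SD, n = 3). Its log2 fold change was -1.96 (adjusted p = 1.43e-09). After 5 weeks it stood at 9.97 on average, with arrays at 10.33, 10.32 and 9.26. SRXN1, sulfiredoxin, fell by 0.50, whereas NQO1, a quinone reductase, rose from a range of 13.04 to 13.07 to one of 13.34 to 13.37. ALDH3A1, an aldehyde dehydrogenase, rose by 0.37. Of 14 metallothioneins and their regulators, 7 fell, 1 rose and 6 did not pass. MT1X had levels of 10.63, 10.79 and 9.76 at 1 week and 8.93, 9.14 and 9.17 at 3 weeks, with the third early array well below the other two. It fell by 1.31 at CSE 10%, rose by 1.29 in control, and the difference was -2.60 (adjusted p = 1.10e-05). MT2A fell by 0.73 (adjusted p = 9.08e-03), and without replicate 1 at 1 week its log2 fold change was -0.58 with an adjusted p of 0.0747, the highest over the alternatives, whose lowest was 3.35e-04. The number of metallothioneins that fell was 3 without that array and 4 without replicate 2 at 1 week, replicate 1 at 3 weeks or replicate 2 at 3 weeks.

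CYP1B1, an aryl hydrocarbon receptor target that oxidises polycyclic hydrocarbons, went the other way. It was 11.72, 11.69 and 11.86 at 1 week and 12.41, 12.36 and 12.34 at 3 weeks, a rise of 0.62 (adjusted p = 2.74e-04). In control it fell by 1.50, from 9.69 to 8.19 on average, and the changes differed by 2.12 (adjusted p = 1.12e-09). Relative to control the gene was thus higher by 2.07 at 1 week and by 4.19 at 3 weeks. CYP1A1, the other classical target, rose by 0.86, from a range of 6.11 to 6.59 to one of 7.09 to 7.31. Over 13 genes of the receptor list, 4 rose and 4 fell, where 13.3% of all genes rose and 11.6% fell.

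Most cell cycle genes rose, in CSE 10% and in control. Of 57 genes of DNA replication and the G1/S transition, 43 rose, 0 fell and 14 did not pass, with a median of 0.66, and in control 56 rose with a median of 1.17. Of 70 genes of G2 and mitosis, 55 rose, 3 fell and 12 did not pass, with a median of 0.96, and in control 67 rose with a median of 1.58. Those that fell were 1 without replicate 1 at 1 week or without replicate 2 at 3 weeks. The change was lower at CSE 10% than in control for 31 of the G1/S and 28 of the G2/M genes and higher for 0 in both, so that the difference did not pass for the other G2/M genes, which are the larger part of their list. MKI67, the proliferation marker Ki-67, went from 6.82, 6.96 and 6.81 to 9.03, 8.95 and 8.97. Its rise of 2.12 (SE 0.12, adjusted p = 2.48e-13) stood beside one of 2.50 in control. The difference was -0.37, with an unadjusted 95% interval of -0.73 to -0.02, and did not pass after adjustment over all clusters (adjusted p = 0.211). Its level differed from control by -1.06 at 1 week and by -1.43 at 3 weeks.

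**Figure D4:**
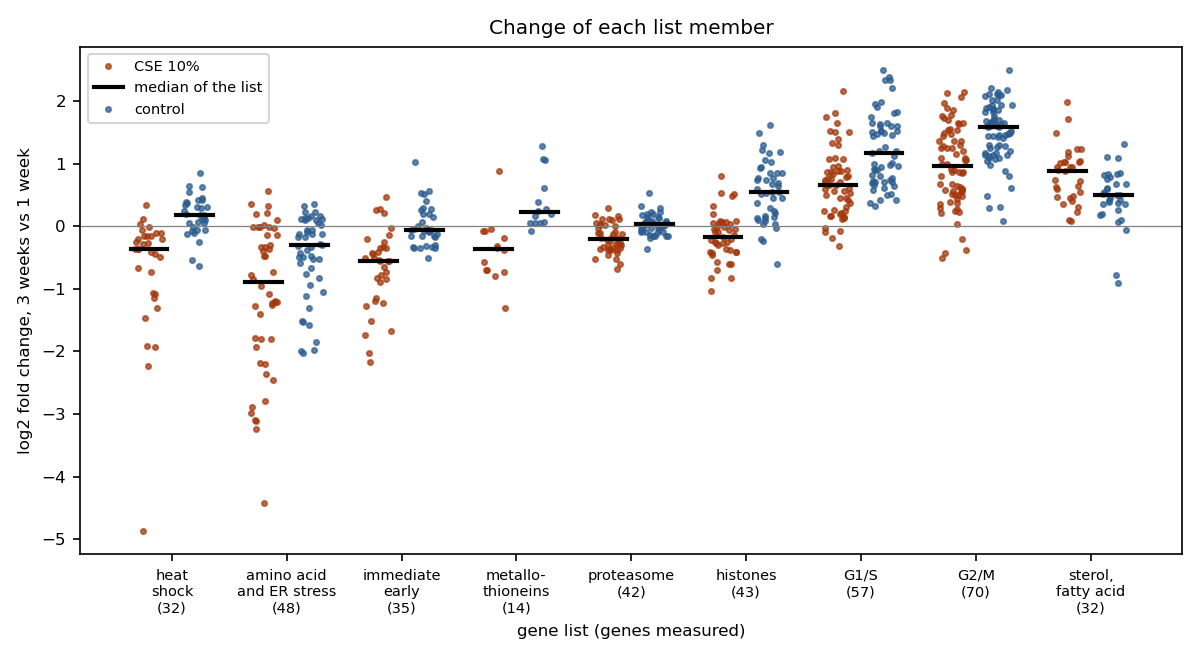
Log2 fold change from 1 to 3 weeks of each member of 9 gene lists in CSE 10% and in control; points are genes, black bars are list medians and the numbers in brackets are the genes measured. The median of the heat shock list is -0.36 in CSE 10% and 0.17 in control, that of the G2/M list is 0.96 and 1.58, and that of the sterol and fatty acid list is 0.89 and 0.50.

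FAM111B, a protease that rises in S phase, had the largest measured rise of all, 2.72, from 5.13, 5.37 and 5.64 to 8.10, 8.15 and 8.04. It rose by 2.20 in control, with a difference of 0.52 (adjusted p = 0.639). Its early levels lie below the lower quartile of 5.89, so the size of the rise rests on a dim start. RRM2, the small subunit of ribonucleotide reductase, rose by 2.16, TICRR, which triggers origin firing, by 2.10, ASPM, a spindle pole protein, by 2.15, and CDK1 by 1.86. BRCA1, of homologous recombination, rose by 1.65 at CSE 10% and the kinase MELK by 1.89. CDC6, which loads the replicative helicase, rose less at CSE 10% (0.95) than in control (2.33), with a difference of -1.37 (adjusted p = 3.27e-04). The small CDK-binding protein CKS2 fell by 0.51 and CKS1B by 0.43, whereas CKS2 rose by 0.88 in control. Without replicate 1 at 1 week, or without replicate 2 or 3 at 3 weeks, the fall of CKS2 no longer passed, with adjusted p of 0.0959, 0.0537 and 0.0657 and a range over all alternatives of 5.56e-03 to 0.0959. Histone genes, whose messages are made in S phase, did not follow the rise. Of 43 measured, 9 fell and 1 rose, with H2AC20 falling by 1.03, while in control 19 rose and 1 fell, and the change was lower than in control for 17. These messages mostly lack poly(A) tails and many are near-identical copies, so that single histone genes are uncertain on the array.

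The hexamer TTTGAA, the core of the cell cycle homology region that DREAM and MuvB complexes bind, was searched on both strands. It was present in 31 of 59 promoters of the G2/M list (52.5%) and in 16.1% of all genes. MKI67, on the minus strand at chr10:128126424-128126673, and PRC1, a microtubule bundler of the central spindle on the minus strand at chr15:90994536-90994785, are shown as examples with the match in capitals.
MKI67: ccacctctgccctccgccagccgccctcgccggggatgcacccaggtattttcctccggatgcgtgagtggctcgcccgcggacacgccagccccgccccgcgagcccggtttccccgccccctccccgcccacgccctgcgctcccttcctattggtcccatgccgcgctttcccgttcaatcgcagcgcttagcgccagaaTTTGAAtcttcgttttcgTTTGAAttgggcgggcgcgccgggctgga
PRC1: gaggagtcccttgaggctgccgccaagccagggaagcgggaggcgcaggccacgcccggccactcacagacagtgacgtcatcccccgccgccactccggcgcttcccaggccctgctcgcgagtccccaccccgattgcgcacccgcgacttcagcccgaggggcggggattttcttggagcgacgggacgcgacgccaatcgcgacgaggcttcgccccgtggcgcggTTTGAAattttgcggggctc
The MKI67 window holds a pair of matches close to the start, and PRC1 holds 1.

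Most genes of cholesterol and fatty acid synthesis rose, and for some of them the rise passed that of control. Of 32 measured, 28 rose, 0 fell and 4 did not pass, with a median of 0.89. In control 22 rose and 2 fell, with a median of 0.50, and the change was higher at CSE 10% for 13 and lower for 0. At CSE 5% 27 rose and 1 fell, with a median of 0.76, and the change at CSE 10% was higher than there for 1 and lower for 1. FADS2, a desaturase of polyunsaturated fatty acids, went from 9.97, 9.90 and 9.82 to 11.85, 11.87 and 11.91. It rose by 1.98 (SE 0.08, adjusted p = 1.76e-16), and the difference from control was 1.14. SCD, which makes oleate, went from 11.02, 10.81 and 10.85 to 12.58, 12.59 and 12.63, whereas control cells were at 12.53 ± 0.09 and 12.79 ± 0.05 (SD, n = 3). The early CSE 10% arrays of SCD were therefore below all other arrays of these 4 groups. SQLE, squalene epoxidase, rose by 1.48 and LSS, lanosterol synthase, by 1.12, and the difference of SQLE from control was 0.70. The median difference of the list from control was -0.75 at 1 week and -0.37 at 3 weeks.

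CST1, cystatin SN, a secreted inhibitor of cysteine proteases, had levels of 9.47, 8.96 and 9.39 at 1 week and 11.75, 11.79 and 11.78 at 3 weeks. The rise of 2.50 (SE 0.11, adjusted p = 3.31e-16) brought it near the control level of 12.39 ± 0.16 and 12.26 ± 0.08 (SD, n = 3). Its change differed by 2.63 from control and by 1.06 from CSE 5%, both towards a higher value, and the difference from CSE 5% did not pass in a separate fit with the replicate number as a block (adjusted p = 0.0559). Of 47 plasma proteins and complement genes, 12 rose and 5 fell, while 0 rose and 12 fell in control, and 14 had a higher change than in control against 1 with a lower one. The shares over all genes in CSE 10% were 13.3% rising and 11.6% falling. CP, ceruloplasmin, which oxidises iron, went from 9.01, 9.34 and 9.50 to 10.44, 10.56 and 10.59. It rose by 1.25 at CSE 10% and fell by 1.90 in control, a difference of 3.15 (adjusted p = 1.75e-06) and the largest such rise of all genes. The complement components C3 and C5 rose by 1.72 and 1.54, and C3 went from a range of 8.63 to 9.06 to one of 10.50 to 10.55. APOH rose by 1.28, whereas the complement regulator CD55 fell by 1.31 and the fibrinogen chain FGG by 1.21.

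PLA2R1, a receptor for secreted phospholipase A2, went from 7.03, 6.91 and 7.42 to 9.37, 9.35 and 9.47, and differed from control by 2.55. UCP2, a mitochondrial carrier, rose by 1.79. TNFSF10, the death ligand TRAIL, went from 5.91, 5.67 and 6.01 to 7.58, 7.59 and 7.67, a rise of 1.75, while it fell by 1.17 in control (difference 2.92, adjusted p = 3.06e-09). Its early CSE 10% levels lie near the lower quartile of all genes, 5.89, so the size of its rise rests on a dim start. Among 49 interferon-stimulated genes, 12 rose and 3 fell, and 10 had a higher change than in control. Over all genes 13.3% rose and 11.6% fell, and 5.83% had a higher change than in control. HERC6 rose by 1.01, GBP2 by 1.02, OAS1 by 0.91 and the RNA sensor RIGI by 0.89. Among 48 genes of inflammation, 4 rose and 11 fell. CCL2, the monocyte chemokine MCP-1, went from 8.87, 8.61 and 8.92 to 10.14, 10.24 and 10.42, a rise of 1.46 (adjusted p = 3.15e-08). Its rise in control was 0.60, and the difference was 0.86 (adjusted p = 9.90e-03). CCL20 fell by 1.02, to 5.71, 5.38 and 5.82 at 3 weeks, all below that lower quartile. TP53INP1, a p53 target, rose by 1.09, but 5 of the 32 genes of the p53 list rose and 8 fell, with GDF15 falling by 1.15.

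The study followed the transition from an epithelial to a mesenchymal state, so the genes it names on these arrays are given whatever their change. VIM, vimentin, went from 10.67, 10.75 and 10.54 to 10.07, 10.10 and 10.09, a fall of 0.56 (adjusted p = 4.77e-06) that differed from control by -0.47, and after 5 weeks the mean was 10.78. At CSE 5% the VIM mean was 10.46 and 10.58, and the changes differed by -0.69. CDH1, E-cadherin, rose by 0.23 (adjusted p = 0.0337), but this did not hold in 5 of the 6 fits that left out 1 array, where the adjusted p lay between 0.061 and 0.13 (2.15e-03 to 0.13 over all alternatives). FN1, fibronectin, had a log2 fold change of 0.27 (adjusted p = 0.0569), CDH2, N-cadherin, of 0.11 (0.507 as adjusted p) and MMP9 of -0.06 (0.688 as adjusted p). MMP2, a gelatinase, rose by 0.53, from a range of 6.43 to 6.46 to one of 6.91 to 7.12. MMP7, matrilysin, was high at both times, between 11.50 and 11.72, with a log2 fold change of 0.13 (adjusted p = 0.688), while it fell by 1.02 in control.

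Of the TGF-beta pathway, the ligands had log2 fold changes of 0.17 for TGFB1 (adjusted p = 0.469) and 0.07 for TGFB2 (adjusted p = 0.730). TGFB2 was already 2.08 above control at 1 week and 1.70 above it at 3 weeks, and its change differed from that at CSE 5% by -0.97 (adjusted p = 7.94e-04). The receptors TGFBR2 and TGFBR3 rose by 0.47 and 1.21, and of the signal transducers SMAD2 rose by 0.29 and SMAD3 fell by 0.36. Without replicate 1 at 1 week the rise of SMAD2 was 0.27 with an adjusted p of 0.0523, where the alternatives ranged from 5.90e-04 to 0.0523. The integrin subunits ITGB6 and ITGB8, which release the latent ligand, rose by 0.95 and 1.27, whereas ITGAV, their common partner, had a log2 fold change of 0.06 (adjusted p = 0.892). BAMBI, a decoy receptor, fell by 1.17. Over the 47 genes of the pathway and its integrins, 10 rose and 10 fell. Of 34 mesenchymal genes 5 rose and 6 fell, of 36 epithelial genes 6 rose and 7 fell, and of 62 matrix genes 12 rose and 7 fell, where 13.3% of all genes rose and 11.6% fell. Without replicate 2 at 1 week 3 epithelial genes rose, and without replicate 3 at 3 weeks 7 matrix genes rose, whereas 10 and 21 rose with housekeeping centring and 11 and 19 with array weights. CDH6, K-cadherin, had the largest rise of the genes named in this paragraph, going from 5.91, 6.11 and 6.20 to 7.99, 8.08 and 8.07 and differing from control by 1.63. Its early levels lie little above the lower quartile of 5.89. The actin-binding tropomyosins TPM1 and TPM2 rose by 0.63 and 0.78, while the collagen crosslinker LOXL2 fell by 1.34, the laminin chain LAMB3 by 1.39 and KRT7 by 1.00.

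The counts of the remaining lists follow, to be read beside the 13.3% of all genes that rose and the 11.6% that fell. Of 42 proteasome genes 14 fell and 1 rose, with PSMB3 falling by 0.68, and of 62 genes of oxidative phosphorylation 14 fell and 4 rose, with COX5B falling by 0.72, a fall that no longer passed without replicate 1 at 3 weeks (-0.56, adjusted p = 0.0644, against 3.54e-04 to 0.0644 over all alternatives). Of 43 ABC transporter and cytochrome P450 genes 19 rose and 1 fell, and of 40 Wnt pathway genes 9 rose and 1 fell. Of 37 hypoxia and glycolysis genes 8 rose and 10 fell, of 13 EGF receptor ligands and receptors 4 rose and 4 fell, of 24 CEACAM and mucin genes 4 rose and 4 fell, of 24 prostaglandin genes 3 rose and 4 fell, and of 23 alveolar genes 6 rose and 2 fell. MUC5B, a gel-forming mucin of the airways, rose by 0.80 and CEACAM5 fell by 0.35. Genes with very long messages, which are sensitive to RNA quality, rose in 12 of 39 cases with 0 falling, and had a median of 0.47 against 0.28 in control, with 0 differing from it. Their number was 6, 7 and 7 without replicates 1 and 2 at 1 week and replicate 3 at 3 weeks. It was 28 in a separate fit of the 6 arrays, 26 in that fit with the replicate number as a block, 23 with array weights and 19 with housekeeping centring. The number of ABC transporter and cytochrome P450 genes that rose was 12 without replicate 2 at 1 week. The part of RNA quality in the results above was not tested.

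Small structured RNAs made up 38 of the 193 genes that became lower; they were picked out by name after their values had been seen. Of 214 such RNAs, which guide RNA modification, splicing or processing, 92 fell and 13 rose in CSE 10%, 66 fell and 7 rose in control, and the changes differed for 8, 6 lower and 2 higher. Over all genes 11.6% fell and 13.3% rose in CSE 10%, and 5.65% fell and 6.52% rose in control. SNORA20, a small nucleolar RNA, went from 10.80, 10.70 and 10.73 to 8.20, 7.82 and 7.53. RPPH1, the RNA of ribonuclease P, went from 12.47, 10.93 and 11.43 to 9.29, 9.04 and 8.74, with a wide spread at 1 week. VTRNA1-1, a vault RNA, fell by 2.86 and TERC, the telomerase RNA, by 2.52. The median change of the 214 was -0.29 in CSE 10%, -0.23 in control and -0.39 in CSE 5%. How such short RNAs were kept through extraction and labelling was not tested.

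The levels after 5 weeks in CSE 10% are given as a description only. Of the 245 genes that were higher at 3 weeks, 221 (90.2%) had a 5-week mean nearer to the 3-week than to the 1-week mean, and of the 155 lower genes that are not small RNAs, 148 (95.5%) had. Of the 38 small RNAs 7 (18.4%) had, with SNORA20 back at 10.37. Of the heat shock genes that passed, 19 of 20 stayed nearer to week 3, with HSPA6 at 6.63 and HSPB8 at 7.40, and of the stress response genes 36 of 37 did, with PHGDH at 7.46.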

How the data were processed

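RNA of A549 cells was hybridised to Affymetrix Human Gene 1.0 ST arrays, 3 biological replicates in each of 12 groups. The deposited values are log2 levels that the authors obtained by RMA, which corrects background, quantile-normalises and summarises the probes of a transcript cluster, with R 2.11.0 and limma named in the labels; no array library version was found. Depth has no counterpart on arrays, so precision is limited by the 3 arrays per group. The replicates are labelled biological.

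Clusters were named through GEO's platform annotation (19460 with 1 symbol, 1754 with several, 12083 with none), and for 769 genes with several clusters the one with the highest mean was used. Group means were fitted to all 36 arrays with limma 3.58.1 in R 4.3.3 (residual df 24, prior df 3.91, prior proportion 0.01), and contrasts gave each change and the differences between changes. Benjamini-Hochberg adjustment ran over all 33297 clusters. Genes were counted where the log2 fold change passed 1 in size and B was positive, B being the statistic the study used. The 3 control arrays titled 5 weeks are described elsewhere in the labels as 3 weeks, and serve only the estimate of spread. The lists and the members described were chosen with earlier results of these data known. Named genes were the 15 largest changes in each direction, up to 5 of each list by p, those the study names, and the largest differences from control and CSE 5%, of which a selection is printed. The fit was tested on simulated data with independent noise. Such data hold no shared array or batch effects, so the test does not bear on these. Alternatives were other thresholds, fits, normalisations, weights and the omission of each array. Sequences are from RefSeq, GRCh38.p14.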

Additional observations from a re-analysis of the deposited data

Results flagged for a closer look

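Several genes changed by a different amount between 1 and 3 weeks in CSE 10% than in control, each with an adjusted p under the 0.05 threshold for the difference itself. The values below are the log2 fold change at CSE 10% minus that in control. Of the heat shock genes and their companions, the differences were -4.97 for HSPA6, -2.05 for DNAJB1, -2.30 for HSPB8, -1.71 for HSPH1, -1.67 for BAG3, -1.58 for SERPINH1, -2.37 for CRYAB, -1.63 for ZFAND2A and -3.15 for ANKRD1. Of the amino acid and endoplasmic reticulum stress genes they were -2.42 for PHGDH, -1.58 for PSAT1, -1.14 for CHAC1, -2.01 for ALDH1L2, -2.36 for CTH, -1.26 for STC2 and -2.91 for PPP1R15A. Of the metal and oxidant response genes they were -1.89 for HMOX1, -2.60 for MT1X and -1.79 for MT2A. Of the early response and inflammatory genes that fell they were -1.81 for DUSP1, -1.69 for KLF4, -2.26 for EGR1 and -2.14 for PTGS2. Of the cell cycle genes they were -1.37 for CDC6 and -1.39 for CKS2. Of the lipid synthesis genes they were 1.14 for FADS2, 1.44 for SCD and 0.70 for SQLE. Of the secreted and immune genes they were 2.63 for CST1, 2.55 for PLA2R1, 1.77 for C3, 1.66 for C5, 3.15 for CP, 0.86 for CCL2, 2.92 for TNFSF10, 1.58 for GBP2 and -1.13 for CD55. Of the remaining genes they were 2.12 for CYP1B1, 1.41 for UCP2, 1.63 for CDH6, 1.45 for ITGB8, 1.14 for MMP7 and -0.47 for VIM. TNFSF10, CYP1B1 and CP rose in CSE 10% and fell in control, and MT1X fell in CSE 10% and rose in control.

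The change also differed between CSE 10% and CSE 5%. The log2 fold change at CSE 10% minus that at CSE 5% was -4.08 for HSPA6, -1.64 for DNAJB1, -1.78 for HSPB8, -1.53 for HSPH1, -1.17 for BAG3, -1.45 for SERPINH1, -1.80 for CRYAB, -1.31 for ZFAND2A and -2.80 for ANKRD1. It was -1.69 for PPP1R15A, -2.19 for PTGS2, -1.56 for EGR1, -1.12 for HMOX1, -1.13 for STC2, -1.03 for CTH, -1.24 for CCL20, -1.13 for CDC6, -1.40 for CKS2, -0.69 for VIM and -0.97 for TGFB2. It was in the other direction for CST1, at 1.06. Leaving out single arrays ended the call in 6 fits each for HMOX1 (adjusted p up to 0.108) and CDC6 (up to 0.0692), and a separate fit with the replicate number as a block ended it for STC2, CCL20 and CST1 (adjusted p = 0.0625, 0.0805 and 0.0559). The causes of these differences were not tested.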

How the results depend on the processing

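Of 184 values for single genes, 170 kept their direction and their side of the threshold in all alternatives tried; over 3924 recomputed values, 3883 did, 28 no longer passed, 11 passed where the reported fit did not, and 2 turned sign, none of them for a gene that passed. These were MMP9, at 0.0336 with housekeeping centring, and TGFB2, at -0.0138 without replicate 3 at CSE 10% and 1 week. Housekeeping centring gave 256 genes with a higher and 75 with a lower change than in control. The number with a higher change than at CSE 5%, 4 as reported, was 2 with B above 3, 2 with the adjusted p in place of B, 1 with cyclic loess, 1 with renewed quantile normalisation and 8 with array weights. It lay between 0 and 7 when 1 array was left out, with 0 without replicate 2 and 7 without replicate 3 of CSE 10% at 1 week, and 1 without replicate 2 of CSE 5% at 1 week. It was 2 without any one of the 3 arrays of CSE 10% at 3 weeks, replicate 3 of CSE 5% at 1 week, or replicates 1 and 2 of CSE 5% at 3 weeks. The other counts stayed within 1.5 times the reported ones. FN1 passed in 7 alternatives (adjusted p from 5.55e-03 to 0.201 over all). The difference from CSE 5% lost its call in 6 alternatives for HMOX1 and in 6 for CDC6, all of them fits with 1 array less, and with the block in a separate fit for STC2, CCL20 and CST1. Of 1080 recomputed counts of list members, 157 moved by over 1.5 times, 53 of them on asking for a log2 fold change beyond 1, which left 9 heat shock genes lower. Housekeeping centring raised the members that rose to 14 for Wnt and 21 for matrix genes, and array weights raised those that fell to 23 for both the proteasome and oxidative phosphorylation. The falls of the heat shock, stress response and early genes and the rises of the cell cycle and lipid genes stayed within 1.5 times their counts in all other alternatives.

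Same-numbered arrays of CSE 10% at 1 and 3 weeks deviated from their group means with correlations of 0.16, 0.09 and 0.11, and the labels do not tie the numbers to a shared culture, so the numbers were not taken as pairs. With the replicate number as a block the comparison gave 245 higher and 193 lower genes, and 160 higher and 123 lower changes than in control. In the deviations from group means, each 1-week array of CSE 10% correlated best with the 3-week array of its own number. In control this held for replicate 1 only, and at CSE 5% for replicate 2 only. Precision is limited by 3 arrays per group and by the lack of a detection call for dim clusters.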
